A study of Mus musculus with 2 samples.

Results

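Interferon-stimulated genes are described here in the ureters of E18.5 mouse embryos. The 37 genes were chosen by name as well-known targets of interferon signalling, and every spot of the array that was not a control and carried one of these names was taken. All 37 names were found, among 29923 genes measured. Of these members, 25 had 1 probe and 12 had several, and a gene was represented by its brightest probe. Total RNA from pooled ureters was hybridised to 2 two-colour Agilent oligonucleotide arrays, each of which set a Pparg-cKO pool against a control pool. Pparg-cKO embryos carried Pax2-cre/+ and Pparg(fl/fl), control embryos were labelled Pparg(fl/?), and all were of the outbred NMRI strain. The study's methods name littermates without cre as controls and give matings that leave their second allele floxed or wild type. Replicate 1 was female and replicate 2 was male, and the second array had the dyes swapped, so sex, dye orientation and array cannot be told apart. The study asked which genes in the ureter change when the nuclear receptor PPARG is lost. Pax2-cre is a transgene that is active in the nephric duct and its derivatives, among them the ureteric epithelium. The floxed allele lacks exons 2 and 3 after recombination, and a transcript without these exons remains. Whole ureters were used, so epithelium, mesenchyme, vessels and resident leukocytes all contributed RNA, and fewer cells of a type cannot be told apart from less RNA per cell.

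Interferons are cytokines of antiviral defence. Type I and type III interferons signal through the kinases JAK1 and TYK2 to a complex that contains STAT2 and IRF9 and binds the interferon-stimulated response element (ISRE) in the promoters of its targets. Type II interferon signals through JAK1 and JAK2, and many of its targets carry the gamma-activated sequence (GAS). The proteins made from these targets sense foreign nucleic acid, block viral replication, form immune GTPases and process antigen, and many of them are made at a low level in the absence of infection.

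The response element is the feature of sequence that such genes are known to share, and so it was looked for in their promoters. RefSeq promoters of build GRCm38.p6, from 250 bases before to 50 bases after the start site, were at hand for 28 of the 37 members. No entry was matched for Oas2, Mx1, Mx2, Usp18, Dhx58, Iigp1, Zbp1, Parp14 and Rtp4. The core of the ISRE was searched as 2 units of GAAA with any 2 bases between them, or, on the other strand, 2 units of TTTC so spaced, with overlapping matches allowed. At least 1 match lay in the promoters of 15 of the 28 members, against 3.44% of all 32851 promoters in the table and 3.99% of all genes with an entry. The GAS was searched as TTC and GAA with any 3 bases between them, which reads alike on both strands. It was matched in 8 of the 28 members, against 8.30% of all promoters and 9.55% of all genes with an entry. The windows of 30 bases below hold ISRE cores of the members on which the results turn, with every base of a match in capitals, in the direction of the gene.
Oas1a: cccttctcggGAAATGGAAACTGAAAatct
Ifit1, distal: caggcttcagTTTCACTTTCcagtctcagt
Ifit1, proximal: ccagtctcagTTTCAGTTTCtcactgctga
Ifit3, distal: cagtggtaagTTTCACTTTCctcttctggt
Ifit3, proximal: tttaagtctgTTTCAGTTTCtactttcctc
Isg15: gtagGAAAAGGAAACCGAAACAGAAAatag
Gbp3: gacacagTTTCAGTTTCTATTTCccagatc
Bst2: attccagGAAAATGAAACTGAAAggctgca
Gbp2: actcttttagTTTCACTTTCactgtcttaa

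Oas1a and Ifit1 were the members called by the moderated test, Ifit3 and Isg15 stood near the fold threshold or past it on the male array, Gbp3 and Bst2 were among those that differed most between the arrays, and Gbp2 was the tested member with the lowest mean ratio. The Oas1a window was at chr5:120907526-120907555 on the minus strand, and its first matched base lay 20 bases before the start site. The Ifit1 windows were at chr19:34640775-34640804 and chr19:34640794-34640823 on the plus strand, with matches 104 and 85 bases before the start. The Ifit3 windows were at chr19:34583363-34583392 and chr19:34583397-34583426 on the plus strand. In Ifit1 and Ifit3 alike, the distal core read TTTCACTTTC and the proximal core TTTCAGTTTC. The Isg15 window, at chr4:156200871-156200900 on the minus strand, held 3 overlapping cores. The Gbp3 window was at chr3:142559992-142560021 on the plus strand and the Gbp2 window at chr3:142620594-142620623 on the plus strand. The Bst2 window was at chr8:71537580-71537609 on the minus strand. No ISRE core was matched in the promoter windows of Oasl2, Ifi44 and Tap1, and this says only that these letters were not in these 300 bases.

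The direction of the ratios rested on a choice. As labelled, the red dye marked the control pool on replicate 1 and the Pparg-cKO pool on replicate 2. The deposited value table, whose titles set Pparg-cKO against control, ran the other way on both arrays: its correlation with log2 red over green was 0.905 on replicate 1 and -0.932 on replicate 2. Signs follow the deposited table here, which is also the direction in which the study describes its gene changes on arrays and in tissue sections and is thus the likely one, and if the dyes were labelled correctly every higher and lower below is exchanged, while sizes, total counts and p-values stay. In the direction of the deposited table, the probe of Pparg gave processed signals of 12357 in the female Pparg-cKO pool and 6113 in its control, and 12930 and 6688 in the male pools. Whether this probe lies within the deleted exons was not analysed here, and the targeted gene was not used to check the labels. Upk1a, a uroplakin of the urothelial plaque, had 4177 and 14897, and 5461 and 12494, in the same order. Between 66.2% and 77.3% of spots per channel were well above background.

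Most members were slightly to moderately higher in the Pparg-cKO pools on both arrays, and the male array showed the larger ratios. Of 36 members that were well above background and could be tested, 33 had a ratio above 0 on both arrays, against 26.7% of 22499 genes tested. Gbp2 was below 0 on both arrays (26% of all genes tested), and Ddx58 and Bst2 had opposite signs. The median log2 ratio of the tested members was 0.28 in females and 0.66 in males, and 0.42 for the mean of both, against -0.01, 0.01 and 0.01 over all genes tested. The central 90% of all genes tested ran from -0.28 to 0.33 in the mean log2 ratio, and 23 of the 36 members lay above its upper end. Processed signals of both Pparg-cKO pools lay above those of both control pools in 26 of the 36 tested members, against 14.7% of all genes tested. Processed signals were not normalised between the arrays. Any level or order of pools across arrays, here and below, thus also carries array, sex and dye. Oas3 was not well above background in any pool and was not tested.

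**Figure D1:**
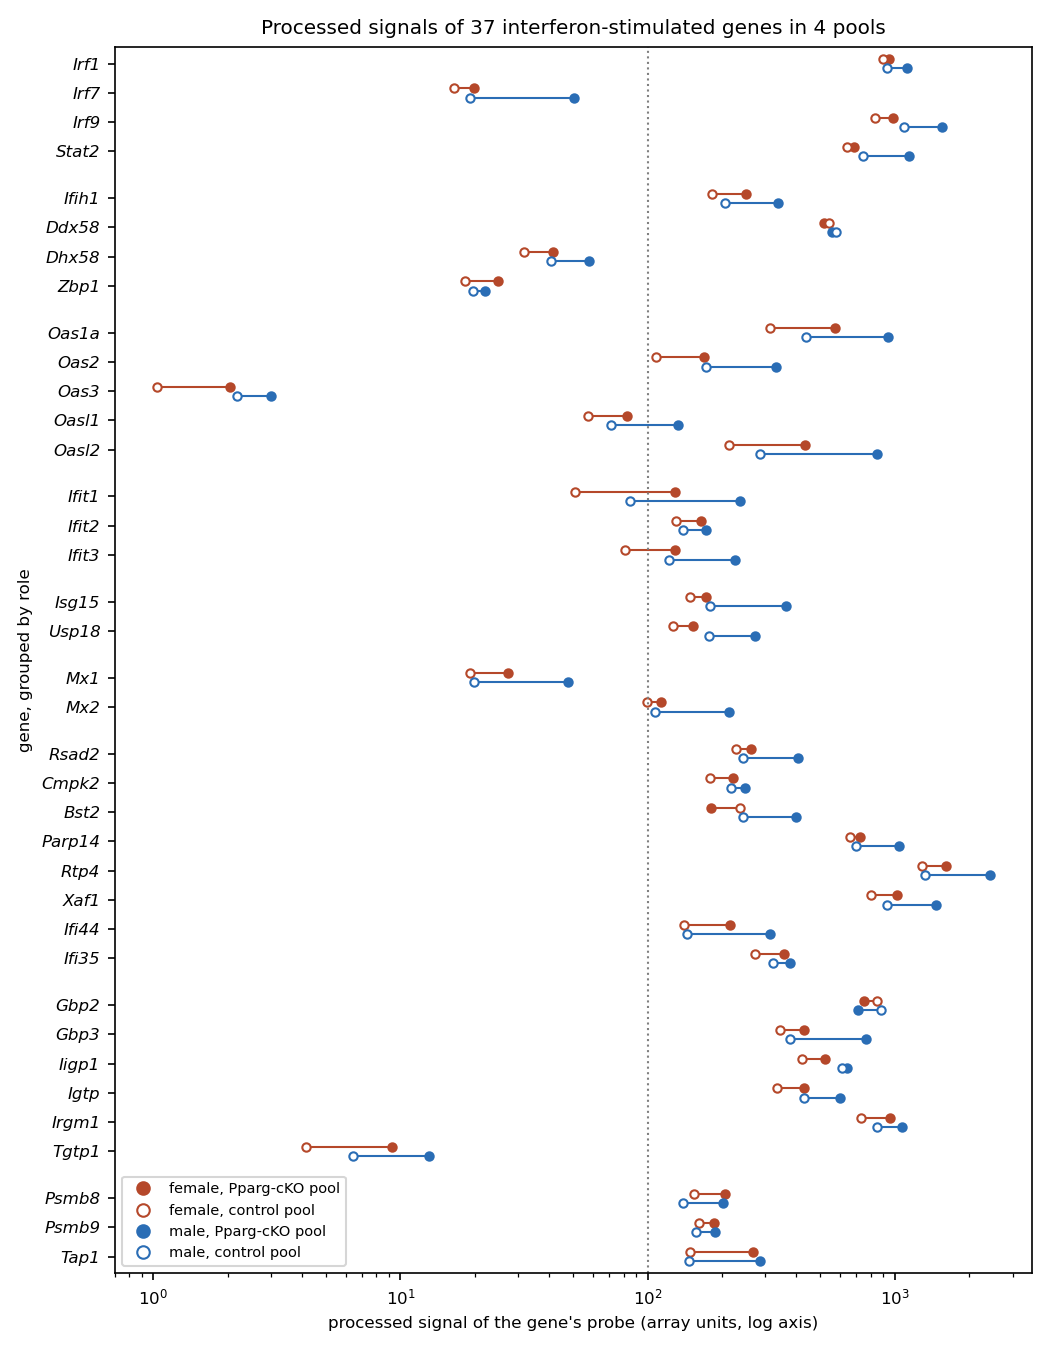
Processed signal of the probe of each of the 37 members (horizontal log axis, array units) in the female and male Pparg-cKO pools (filled) and control pools (open), grouped by role; each line joins the pools of 1 array and the dotted line marks a signal of 100. Filled symbols lie to the right of open ones on both arrays for 34 members, and signals span 1.03 to 2438.

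The study kept changes of 1.5-fold or more on both arrays and left out intensities below 100. Here the fold rule took the change in 1 direction on both arrays and asked for the signal in the brighter channel of each. By this rule, 5 of the 30 members bright enough were higher in Pparg-cKO. These were Oas1a, Oasl2, Ifit1, Ifi44 and Tap1. Over all 14015 genes bright enough, 0.792% were higher by this rule and 1.84% passed in either direction. None of the 30 members was lower by the rule. In limma with Benjamini-Hochberg adjustment over all genes tested, 2 of 36 members (Oas1a and Ifit1) had an adjusted p under 0.05, against 0.742% of all genes tested in either direction and 0.378% in this one. The unadjusted p was under 0.05 in 24 of the 36 members, each with the higher mean in Pparg-cKO, against 8.44% of all genes tested in either direction and 4.27% in this one. Both limma calls were lost with the deposited table (0 members called, 15 with an unadjusted p under 0.05) and without the filter on dim probes (0 called, 25 with an unadjusted p under 0.05). With normexp run without its offset, 7 members were called.

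**Figure D2:**
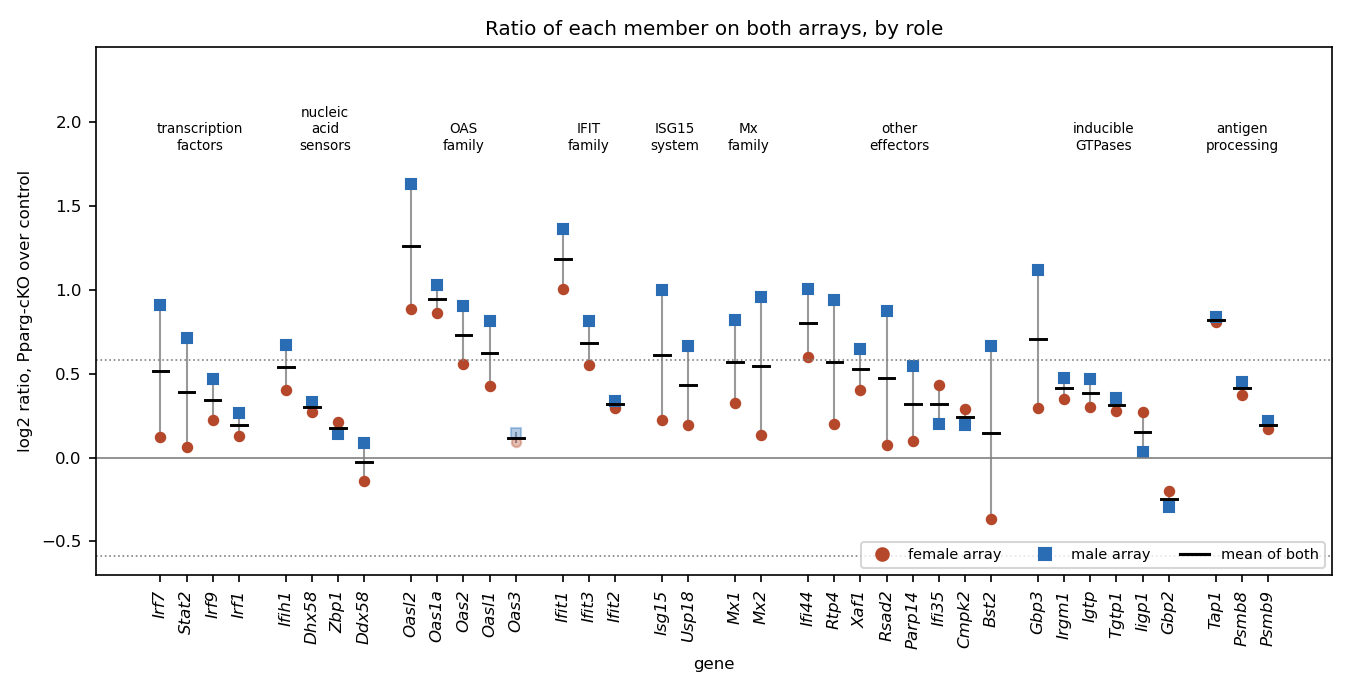
Log2 ratio of Pparg-cKO over control (vertical axis) of each member on the female array (circles) and the male array (squares), with a black bar at the mean, ordered within each role; dotted lines mark 1.5-fold in either direction and pale symbols mark Oas3, which was not tested. Oasl2, Ifit1, Oas1a, Tap1 and Ifi44 have the 5 highest means, and Bst2 has its arrays on opposite sides of 0.

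The OAS family had the highest median ratio among the roles. Its synthetases make short oligoadenylates that activate the latent nuclease RNase L, and Oasl1 and Oasl2 encode OAS-like proteins. Oasl2 had signals of 433.7 in Pparg-cKO and 214.6 in control in the female pools and 846.5 and 284.7 in the male pools. Its log2 ratios were 0.89 and 1.64, with a mean of 1.26 ± 0.53 (SD, n = 2 arrays), and it passed the fold rule but not limma (adjusted p = 0.104, and 0.0046 to 0.533 under the alternatives). The pools did not overlap, and the gap was widest between the male pools.

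Oas1a, a catalytically active synthetase, gave 573.5 and 313.8 in the female pools and 940.7 and 438.1 in the male pools. Its log2 ratios of 0.86 and 1.03 agreed closely, and the mean was 0.95 ± 0.12 (SD, n = 2), or 1.93-fold (limma adjusted p = 0.0486, and 0.00648 to 0.533 under the alternatives). Its second probe, which was dimmer, had log2 ratios of 0.74 and 0.65. Mouse carries a cluster of closely related Oas1 genes, and how far a probe reads more than 1 of them was not analysed here. Among these, Oas1f had log2 ratios of 0.74 and 0.79 and also passed the fold rule, while Oas1b, with signals between 1974 and 2227, had ratios of 0.21 and -0.06.

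Oas2, which carries a duplicated synthetase unit, gave 169.5 and 108.7 in the female pools and 331.7 and 171.8 in the male pools. Its female log2 ratio of 0.56 was just under the threshold and its male ratio was 0.90 (limma adjusted p = 0.143). Oasl1, with 82.4 and 57.5 in the female pools and 133.4 and 71.2 in the male pools, was too dim on the female array for the fold rule, with log2 ratios of 0.43 and 0.82. Oas3 was listed between 1.03 and 2.99 in the 4 pools, at the background. The 4 tested members of the family thus all had positive ratios on both arrays, with a median of 0.84.

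The IFIT proteins bind foreign RNA, in particular RNA that lacks the methylation of host caps, and block its translation. Ifit1 had signals of 50.7 (female) and 84.9 (male) in the control pools, and of 129.2 and 236.6 in the Pparg-cKO pools. Its log2 ratios were 1.01 and 1.37, and it was the only member past 2-fold on both arrays. The mean was 1.19 ± 0.25 (SD, n = 2), or 2.28-fold (limma adjusted p = 0.0422, and 0.00115 to 0.533 under the alternatives). The offset draws the ratios of dim probes towards 0, and with normexp run without it the mean log2 ratio of Ifit1 was 1.33. From the scanner's own processed signals, which also differ in other steps, the mean log2 ratio was 1.42.

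Ifit3 had 129.1 and 80.8 in the female pools and 225 and 122.5 in the male pools. Its log2 ratios of 0.56 and 0.82 left it just below the fold rule, which it passed with the scanner-processed signals, with normexp without an offset and with the deposited table. Ifit2 gave 163.9 and 131 in the female pools and 172.6 and 139.5 in the male pools, and its log2 ratios of 0.30 and 0.34 were alike on both arrays. By ratio, the 3 members of the family lay in the order Ifit1, Ifit3, Ifit2 on each array, and only Ifit1 was called.

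ISG15 is a ubiquitin-like protein that is joined to other proteins after interferon exposure, and USP18 removes it again and restrains the type I receptor. Isg15 gave 172.3 and 148.7 in the female pools and 362.7 and 178.9 in the male pools, so that only the male Pparg-cKO pool stood well apart from the other 3. Its log2 ratios were 0.22 and 1.00, and its second probe repeated this with 0.12 and 1.12. Usp18 had 152.5 and 126.3 in the female pools and 271 and 176.9 in the male pools, with log2 ratios of 0.20 and 0.67. Neither passed limma (adjusted p = 0.50 and 0.52).

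The Mx proteins are dynamin-like GTPases that trap viral components. Mx1 was dim, with 27.2 and 19.2 in the female pools and 47.5 and 19.9 in the male pools, and log2 ratios of 0.33 and 0.82. Mx2 gave 113.4 and 99.8 in the female pools and 213 and 107.1 in the male pools, and log2 ratios of 0.13 and 0.96. The second probe of Mx2, with signals under 10, had 0.11 and 0.24, and the median over both probes was 0.36 in place of 0.55. In both genes, by the brighter probe, the 2 control pools were nearly level and the male Pparg-cKO pool was the highest.

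Other antiviral effectors ranged from a clear difference to opposed arrays. Ifi44, an interferon-inducible cytoplasmic protein, had 216 and 139.8 in the female pools and 312.4 and 143.9 in the male pools. Its log2 ratios of 0.60 and 1.00 passed the fold rule, with a mean of 0.80 ± 0.28 (SD, n = 2) and a limma adjusted p of 0.134. With median centring in place of loess, and with the deposited table, Ifi44 no longer passed the fold rule, although its mean log2 ratio was then 0.90 and 0.86.

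Rtp4, a receptor transporter protein of the interferon response, had the brightest probe among the members, with 1618 and 1288 in the female pools and 2438 and 1329 in the male pools, and log2 ratios of 0.20 and 0.94. Rsad2, which encodes viperin, an enzyme that makes a chain-terminating nucleotide, had 263 and 228.6 in the female pools and 408 and 244.1 in the male pools, with ratios of 0.08 and 0.87. As in Isg15 and Mx2, the female pools were close and the male pools apart. Cmpk2, the nucleotide kinase next to Rsad2, had ratios of 0.29 and 0.19 and so did not share the male excess. Xaf1, a pro-apoptotic factor, had ratios of 0.40 and 0.65, Parp14, a mono-ADP-ribosyltransferase, 0.10 and 0.54, and Ifi35 0.44 and 0.20.

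Bst2, which encodes tetherin, a membrane protein that holds budding virus at the cell surface, was the member with the largest difference between arrays. Its signals were 181 in Pparg-cKO and 237 in control in the female pools and 398.5 and 242.4 in the male pools. By these signals, not normalised between arrays, the control pools were level, and the Pparg-cKO pool was the lowest of the 4 in females and the highest in males. The log2 ratios were -0.37 and 0.66, and the mean of 0.15 ± 0.73 (SD, n = 2) was smaller than the spread between arrays.

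The inducible GTPases act on the membranes of intracellular pathogens and are driven mainly by type II interferon. Gbp3, a guanylate-binding protein, had 430.5 and 342.3 in the female pools and 766.1 and 376.2 in the male pools, with log2 ratios of 0.29 and 1.12. Gbp2, of the same family and with signals between 708.8 and 882.4, had ratios of -0.20 and -0.30, the only tested member below 0 on both arrays (limma adjusted p = 0.640). Of the immunity-related GTPases, Irgm1 had log2 ratios of 0.35 and 0.48, Igtp 0.30 and 0.47, and Iigp1 0.27 and 0.03. The second probe of Iigp1, with signals between 378.4 and 513.2, had opposed ratios of 0.36 and -0.10. Tgtp1 had signals of 13 at most, and its male control pool was not well above background. None of the 6 GTPases was called by the fold rule or by limma.

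Tap1, Psmb8 and Psmb9 encode a subunit of the peptide transporter that loads MHC class I and subunits of the immunoproteasome. Tap1 gave 267.8 and 148.4 in the female pools and 285.2 and 146.6 in the male pools, the most even result among the members past the fold rule. Its log2 ratios were 0.81 and 0.84, with a mean of 0.82 ± 0.02 (SD, n = 2), and its limma adjusted p was 0.0604 (0.0115 to 0.533 under the alternatives). Psmb8 and Psmb9 had mean log2 ratios of 0.41 and 0.20. Of other class I genes, Tap2 had opposed ratios of -0.20 and 0.75, and B2m, with signals between 12078 and 14817, had 0.07 and 0.25.

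The transcription factors of the pathway had a median log2 ratio of 0.37, and none was called. Irf9, the DNA-binding partner of STAT2, had 981.4 and 831.1 in the female pools and 1555 and 1090 in the male pools, with log2 ratios of 0.23 and 0.47. Stat2 had 686.8 and 643.1 in the female pools and 1147 and 741.5 in the male pools, with ratios of 0.07 and 0.72. Irf7, the amplifier of type I interferon production, was dim at 19.8, 16.5, 50.5 and 19.2 in the female Pparg-cKO, female control, male Pparg-cKO and male control pools, with ratios of 0.13 and 0.91. Irf1, the factor of the type II response, had ratios of 0.13 and 0.26. In these 4 genes the male Pparg-cKO pool was again the highest.

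The sensors of nucleic acid were mixed. Ifih1, which encodes the sensor of long double-stranded RNA MDA5, had 250 and 181.5 in the female pools and 336.4 and 206.7 in the male pools, with log2 ratios of 0.41 and 0.67 (limma adjusted p = 0.247). Its second probe, with signals of at most 13.8, had ratios of -0.06 and 0.18. Ddx58, which encodes the RNA sensor RIG-I, had signals between 516.5 and 580.1 in all 4 pools and ratios of -0.14 and 0.09, and its second probe, with signals between 125.1 and 158.6, had 0.13 and 0.10. Dhx58, a regulator of both, had ratios of 0.27 and 0.33, and Zbp1, a sensor of Z-form nucleic acid, 0.21 and 0.14, both at signals under 60.

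The larger ratios on the male array ran through most roles, on an array whose ratios were also more widely spread upwards. The central 90% of all genes tested ended at a log2 ratio of 0.28 in females and 0.59 in males, and 18 and 20 of the 36 tested members lay above these ends. The male ratio exceeded the female ratio in 31 of 36 tested members, against 55.7% of all genes tested. On the male array, 17 of the 30 members bright enough were at least 1.5-fold higher in Pparg-cKO (6.44% of all such genes), and on the female array 5 were (1.19%). In 11 of these 30 members, ratios were positive on both arrays and 1.5-fold was reached on the male array only (2.89% of all such genes). Among all tested members, dim ones included, the male ratio was at least 0.5 higher on the log2 scale in 9 (8.07% of all genes tested), namely Irf7, Stat2, Oasl2, Isg15, Mx2, Rsad2, Bst2, Rtp4 and Gbp3. Zbp1, Cmpk2, Ifi35, Gbp2 and Iigp1 had the lower ratio on the male array. Genes at least 1.5-fold higher were thus commoner on the male array over all genes as well, while 1.87% (female) and 1.91% (male) were 1.5-fold lower. With 1 array a sex and the dyes exchanged, a difference between sexes was not tested.

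**Figure D3:**
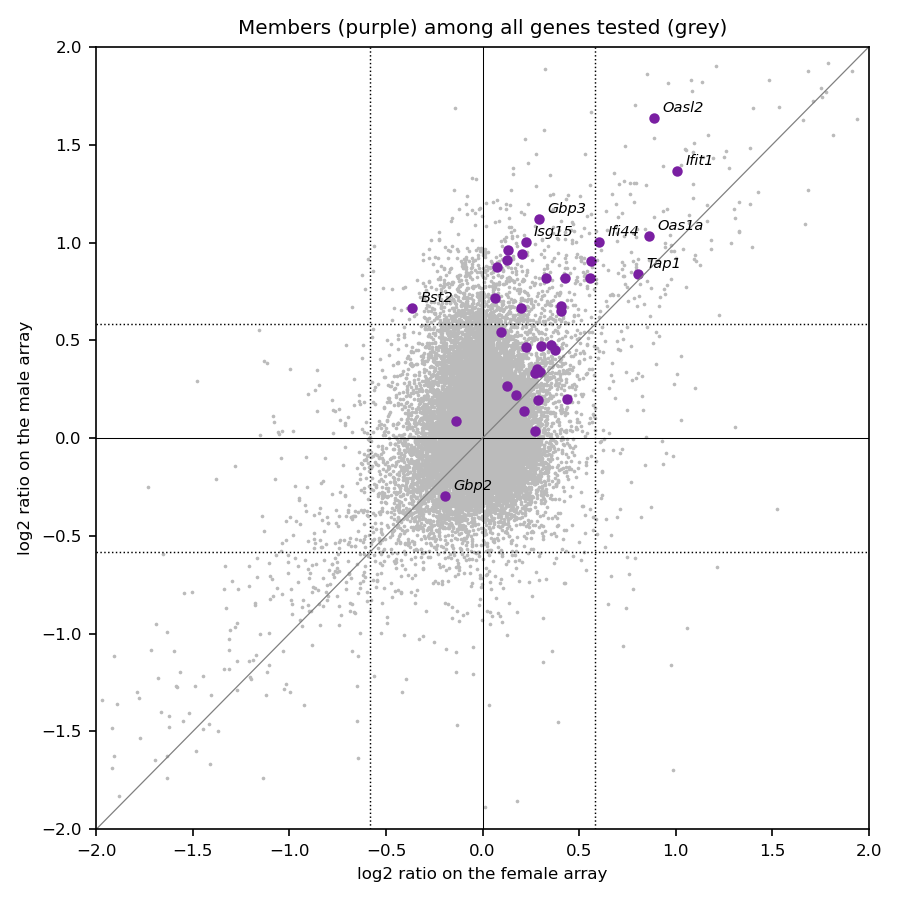
Log2 ratio on the female array (horizontal) against that on the male array (vertical) for the 36 tested members (purple) and the other genes tested (grey); dotted lines mark 1.5-fold, the diagonal marks equal ratios, and 47 genes beyond 2 on an axis are not drawn. Members lie mostly above the diagonal, Oasl2, Ifit1, Oas1a, Tap1 and Ifi44 lie in the upper right field, and Bst2 lies left of 0.

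The genes upstream of the members were given by lists. No interferon was bright: all 14 ligand genes found had signals under 100 in every pool, Ifnb1, Ifng, Ifna4, Ifne and Ifnk were not well above background, and the 9 tested had mean log2 ratios between -0.08 and 0.04, with none called. Ifna1, the brightest, had signals between 31.0 and 34.1. The names Ifna6, Ifna9, Ifnz, Il28a and Il28b, and the receptor name Il28ra, were not found on the array. Of 5 receptor genes, none was called, and Ifngr1, the brightest, with signals between 1969 and 2218, had ratios of 0.12 and 0.21. Of these genes 2 were positive and 2 negative on both arrays (26.7% and 26% of all genes tested). Among the latter was Ifnar2, a subunit of the type I receptor, with -0.19 and -0.44.

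Of the 4 genes of kinases and STATs reported, none was called, and their median was 0.10. Jak1, the brightest, had ratios of -0.13 and 0.16. The 7 feedback inhibitors had a median of 0.13 and no call, and Pias1, the brightest, had ratios of -0.07 and 0.02. The 18 tested genes of interferon induction, such as Tlr3, Mavs and Irf3, had a median of 0.07 and no call. Trim25, the brightest of these, had ratios of 0.21 and -0.07.

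Other interferon-stimulated genes showed a smaller shift. Of 47 tested, 33 had positive ratios on both arrays (26.7% of all genes tested) and 2 negative (26%), and the median log2 ratio was 0.24. By the fold rule 2 of 36 bright enough were higher (0.792% of all such genes), Ifi27l2a and Oas1f. Ifi27l2a, a small interferon-inducible membrane protein gene, had 3674 and 1374 in the female pools and 7668 and 3351 in the male pools. Its log2 ratios were 1.33 and 1.21, and the mean was 1.27 ± 0.08 (SD, n = 2). Ifi27l2a was the 1 gene of the 47 called by limma, against 0.378% of all genes tested called higher. Its limma adjusted p was 0.0215, and 0.00116 to 0.533 under the alternatives. B2m had the brightest probe of the list. The chemokines Cxcl9, Cxcl10 and Ccl5, which activated leukocytes and responding tissue release after interferon exposure, were dim, with signals between 10.2 and 16.2 in the control pools and ratios between 0.00 and 0.14.

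**Figure D4:**
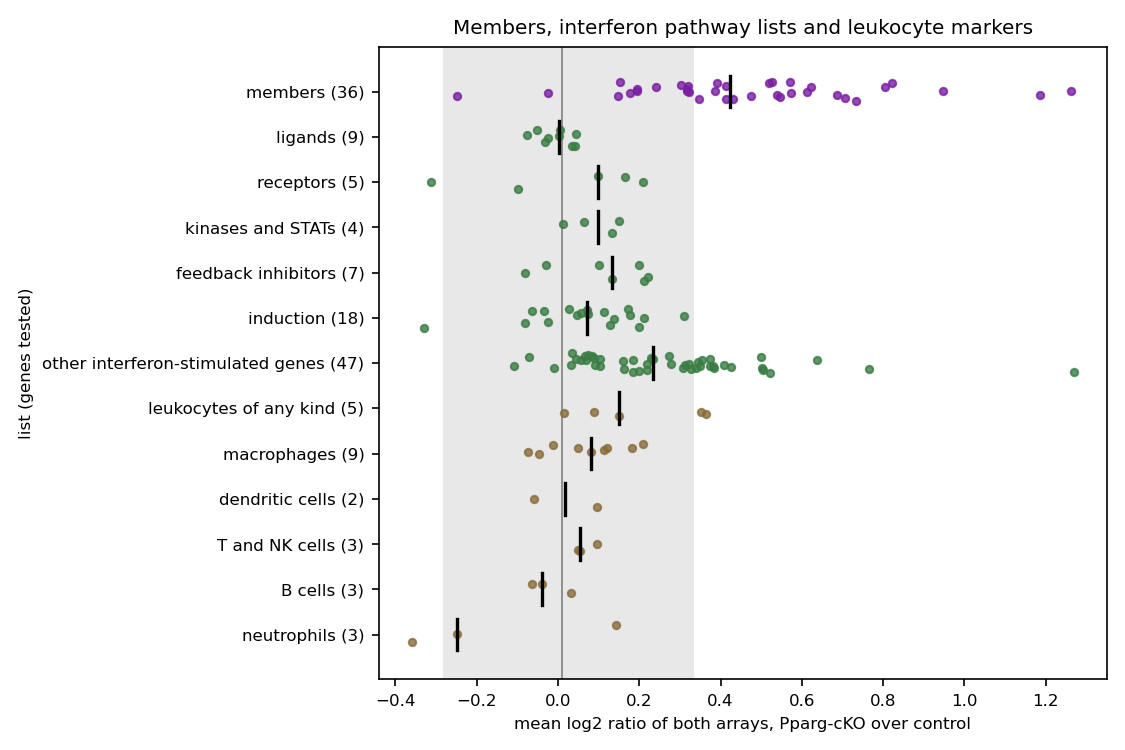
Mean log2 ratio of both arrays (horizontal) for the tested genes of the member list, 6 lists of the interferon pathway and 6 lists of leukocyte markers, with a black bar at each median; the grey band spans the central 90% of all genes tested. The members have a median of 0.42 and the other interferon-stimulated genes 0.24, while ligands, receptors, kinases and leukocyte markers have medians of at most 0.15.

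Leukocytes express many of these genes at a high level, so their markers were measured beside them. Of 30 marker names of leukocytes, 29 were found and 25 tested. Of these, 12 had positive ratios on both arrays (26.7% of all genes tested) and 3 negative (26%), their median log2 ratio was 0.05, and none was called by the fold rule or by limma. The summed signal of the lists was 28956 in the female and 26439 in the male Pparg-cKO pool, and 26492 and 26463 in the control pools. Of this, between 14586 and 15995 came from the probe of Siglech alone. Ptprc, which encodes CD45, had signals between 59.5 and 74.2, and the macrophage markers had a summed signal of 9558 and 8305 in Pparg-cKO and 8821 and 8211 in control. Itgax, Cd3g and Ncr1 were not well above background in any of the 4 pools, and Cd8a in none but the male Pparg-cKO pool. The highest ratios of the lists were those of Cd52 (0.51 and 0.22) and Laptm5 (0.22 and 0.48). Neutrophil markers had a summed signal of 1679 and 1613 in the female pools and 1102 and 1501 in the male pools. Urothelial markers had a summed signal of 57418 in Pparg-cKO and 91444 in control in the female pools and 68053 and 79848 in the male pools. Of these 7 markers, 5 were lower on both arrays (26% of all genes tested). By the fold rule 2 of the 7 were lower, Upk1a and Upk1b, against 147 of all 14015 genes bright enough. None was called by limma, and Krt5 and Krt8, keratin genes of the list, had opposed ratios. The 6 markers of smooth muscle and mesenchyme had a median log2 ratio of 0.07 in females and -0.08 in males, and none was called. Acta2, a smooth muscle actin gene with the brightest probe of that list, had ratios of 0.11 and -0.51, and Col1a1, a fibrillar collagen gene with the highest ratio of the list, had 0.13 and 1.08. The part of leukocytes, urothelium or mesenchyme in the ratios of the members was not tested.

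Members with an ISRE core did not stand out by ratio among the members. The 14 tested with a match had a median mean log2 ratio of 0.45, from -0.25 (Gbp2) to 1.19 (Ifit1), and the 13 tested without one had 0.41, from 0.20 (Psmb9) to 1.26 (Oasl2). Over all 508 genes tested whose promoter held the core, the median was 0.03, and 34.3% had positive ratios on both arrays. The 8 tested members with a GAS had a median of 0.32, and the 19 without one 0.53. Both distal and proximal cores of Ifit1 recurred in Ifit3, and the mean ratio of Ifit1 was the higher. These values are a description, and no difference between members with and without a motif was tested.

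**Figure D5:**
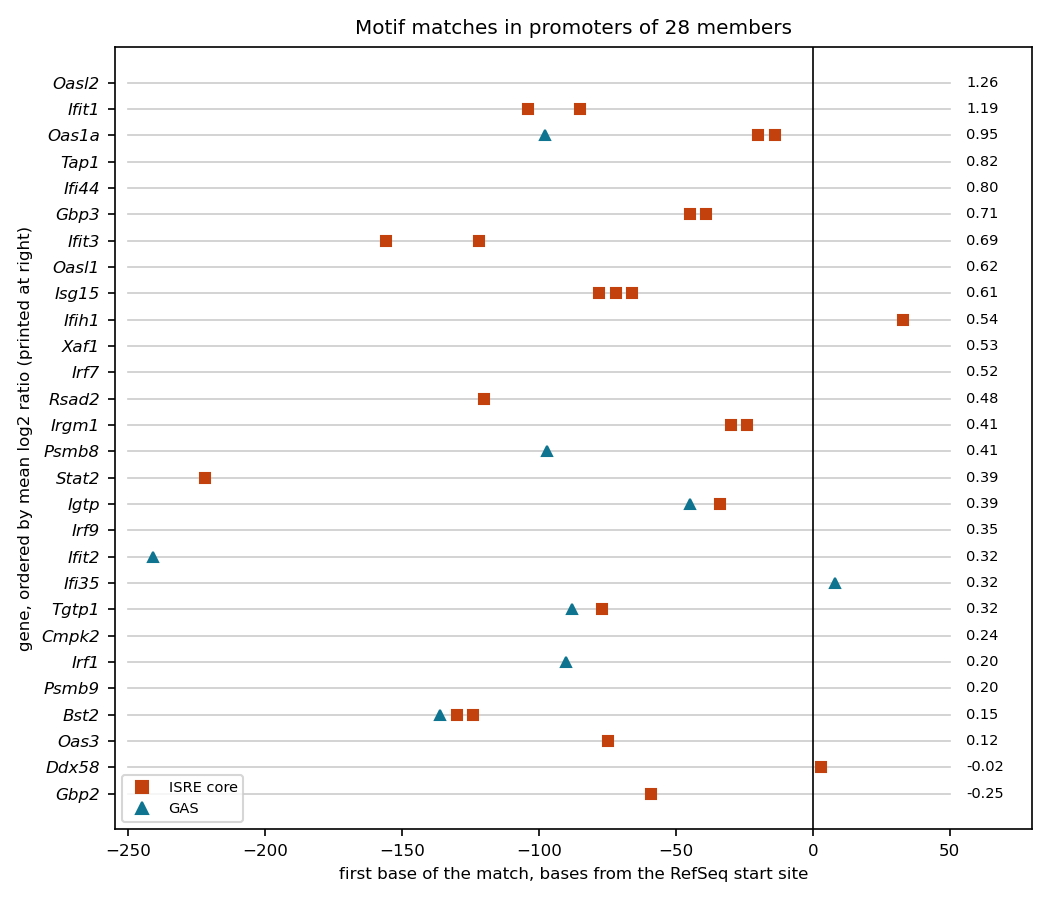
Position of ISRE cores (squares) and GAS matches (triangles) in the RefSeq promoters of 28 members, as the distance of the first matched base from the start site in bases (horizontal); genes are ordered by their mean log2 ratio, printed at the right. ISRE cores lie in 15 members from the top to the bottom of the order, mostly before the start site, and Oasl2, Tap1 and Ifi44 have none.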

How the data were processed

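Per the file headers, the deposited scanner files (Agilent Feature Extraction 10.7.3.1) held spot intensity on a linear scale, as mean signal, median background and a background-corrected, dye-normalised processed signal, and the log10 ratio of red over green. The value table the authors deposited, of signed fold changes, served as an alternative. Each array held 174979 spots, 157716 of them not controls, for 39429 probes. Outlier flags removed 2.87% and 3.24% of spots, and 0 spots were saturated. In limma 3.58.1 (R 4.3.3), intensities were corrected with normexp (offset 50), and loess was applied within arrays. Spots of a probe were averaged, and lmFit and eBayes were run over all genes tested, with 1 residual and 3.96 prior degrees of freedom, after a test on simulated data. A gene was tested when well above background on at least 50% of its spots in a channel on each array. Log2 ratios carry the offset and understate changes of dim genes. Array number, 2, limits the precision. The p-values rest on the spread of a gene between 2 arrays of pooled ureters, drawn towards a variance common to all genes. By the degrees of freedom, the common variance weighs more than the gene's own. The spread between arrays also holds sex and dye, and it does not measure the spread between embryos. Alternatives were the scanner-processed signals, no offset, median centring, the deposited table, all probes of a gene, no filter, another threshold and each array alone. Of 49 member probes, 45 matched a RefSeq transcript of the same name, in 35 of 37 members. The members and lists were chosen with earlier results of these data known. All members are named. Genes of the pathway lists are named when they passed a call or had the brightest probe of their list, and other pathway and marker genes were picked with their values seen. 1 gene of the pathway lists is not reported here.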

Additional observations from a re-analysis of the deposited data

Results flagged for a closer look

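Bst2 was the 1 member among 37 with ratios of opposite sign and at least 1.2-fold on each array: its log2 ratio was -0.37 in females and 0.66 in males, a difference of 1.03. The difference was not tested, since each sex had 1 array and the dyes were exchanged with sex.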

How the results depend on the processing

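The number of members past the fold rule was 5, and 4 to 7 under the other normalisations and probe choices. It was 1 (Ifit1) with a 2-fold threshold and 5 to 18 with 1 array alone, 18 being the male array, where Oasl1, too dim on the female array, also counts. The number called by limma was 2, and it was 1 (Ifit1) with scanner-processed signals, with median centring and with the median over all probes, 7 with normexp without an offset, and 0 with the deposited table, where 0 of all genes were called, and without the filter on dim probes. The 7 were Oas1a, Oas2, Oasl2, Ifit1, Ifit3, Ifi44 and Tap1, and all genes called then numbered 502 against 167. The cause was not tested. The median log2 ratio of the members was 0.42, and 0.38 to 0.52 under the other normalisations and probe choices, 0.28 and 0.66 on the female and the male array alone. With the direction by the dye labels, which runs against the likely one named above, the median was -0.42, and the number of members higher on both arrays was 1 in place of 33. The latter number was 32 to 35 otherwise. The mean log2 ratio of Ddx58 changed sign, to 0.0703 with median centring and to 0.0451 with the median over all probes. Slide as a block was not run, because both arrays lay on 1 slide. No paired analysis was possible because each array already gives the ratio of 1 pair of pools. Signals were under 100 in every pool for 6 members, whose ratios the offset draws towards 0. The mean log2 ratio of Tgtp1, 1 of these, was 0.32, and 1.10 with scanner-processed signals.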
